A study of Equus caballus with 12 samples.

Results

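The muscle miRNAs miR-1, miR-206, miR-133a and miR-133b were followed across the heart, lung and liver of the horse. They were chosen by name (eca-miR-1, eca-miR-206, eca-miR-133a and eca-miR-133b), and are 4 of the 294 known horse miRNAs, and of the 629 entries in all, that the authors' table of normalized counts holds. The small RNA libraries came from 4 Polish cold-blooded stallions without known disease, 1 to 2 years old when slaughtered, which are named by their numbers (horses 27, 30, 32 and 34). Heart stands for left ventricle, lung for the right caudal lobe and liver for the right lobe, and the labels name no treatment. Each tissue of each horse gave 1 library, which makes 4 heart, 4 lung and 4 liver libraries from the same animals.

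miRNAs are short RNAs that pair through their 5′ end, the seed, with messenger RNAs and lower the output of those messages. In mammals miR-1 and miR-133a are cut from shared primary transcripts and belong to the heart and skeletal muscle, where MEF2 is among the factors that drive them. miR-206 and miR-133b come from a further cluster that is known from skeletal muscle, and miR-206 is low in the heart of adult mammals. miR-1 and miR-206 have the same seed, as have miR-133a and miR-133b, so that each cluster makes a member of both families. In the RefSeq annotation of the horse assembly TB-T2T, the next miRNA gene after MIR1-1 was MIR133A, with both inside the span of MIB1. After MIR1-2 the next was MIR133A-2, and after MIR206-2 it was MIR133B. The mature miR-1 of both loci bears a single name in the table, as does miR-133a, so the output of the loci cannot be told apart.

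The table names 335 entries by their sequence rather than as a known miRNA, and these were searched for the seeds of the members. The seed of miR-1 and miR-206 (GGAAUGU) stood at bases 2 to 8 of 3 of the 335 entries (0.896%), printed here with the seed in capitals because no other sequence-named entry held it at that place (the known miRNAs were not searched):
21-base entry: aGGAAUGUaaggaaguauuua
18-base entry: uGGAAUGUaagaaguaaa
19-base entry: uGGAAUGUagagaagaaug
The seed of miR-133a and miR-133b (UUGGUCC) stood at bases 2 to 8 of 0 of the 335 entries, and elsewhere in 1. All 3 entries with the miR-1 seed were above 0 in heart libraries only. How many of the 335 entries share this was not counted, so it is not read as a trait of the seed. The 21-base entry had 48.5, 61.5 and 149.7 normalized counts in the hearts of horses 27, 32 and 34 and was listed at 0 in the heart of horse 30. The 18-base entry was seen in the heart of horse 30 alone (26.8 normalized counts), and the 19-base entry in that of horse 34 alone (69.0). Such values are of the size of miR-206 and far under those of miR-1, and the origin of these sequences was not tested.

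The values are read counts that the authors divided by a DESeq2 size factor per library, here called normalized counts. With the lowest value above 0 in a library taken as 6 reads, the study's minimum read count, all values (100%, to within 0.01) were whole multiples of 1 read, so that a miRNA listed at 0 had at most 5 reads under its name. Bounds drawn below from values of 0 hold only for reads listed under that name. This gives a depth of 8113895 to 9355513 reads in heart libraries, 3536536 to 7560746 in lung libraries and 3066869 to 8595569 in liver libraries. The lung of horse 34 and the liver of horse 27 were the shallowest. The tissues carried their defining miRNAs. A hepatocyte list led by miR-122 had sums of 847 to 3278 normalized counts in the hearts, 633 to 2565 in the lungs and 983907 to 1394321 in the livers. A list of 9 epithelial and multiciliated-cell miRNAs had sums of 334 to 1374 in the hearts, 85446 to 121838 in the lungs and 5446 to 7500 in the livers. In bulk tissue, fewer cells of a type and less RNA per cell cannot be told apart.

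miR-1 was the most abundant miRNA in each of the 4 hearts. It stood at 4659914, 5570703, 4465396 and 7824377 normalized counts in the hearts of horses 27, 30, 32 and 34, at 7886, 10161, 8830 and 8965 in their lungs, and at 1321, 4725, 1483 and 5920 in their livers. The tissues did not overlap: the lowest heart was 439-fold above the highest lung, and the lowest lung lay 1.33-fold above the highest liver. Lungs were close to each other (8961 ± 933, SD, n = 4), while livers split into a lower pair (horses 27 and 32) and a higher pair (horses 30 and 34).

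As a share of the reads in the table, miR-1 alone took 45.8, 46.2, 42.7 and 51.1% in the hearts of horses 27, 30, 32 and 34, whereas lungs gave it 0.159 to 0.224% and livers 0.0233 to 0.104%. The 95% Wilson intervals of the shares in heart were at most 0.0686 percentage points wide. In liver the intervals were up to 14.7% of the share itself. They cover counting error only, as reads copied by PCR are not independent molecules. Ranked among all entries, miR-1 fell between places 48 and 56 in lung and between 56 and 99 in liver.

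miR-133a, the cluster partner of miR-1, had 1332974, 1066430, 613594 and 283203 normalized counts in the hearts of horses 27, 30, 32 and 34. It had 665, 1037, 759 and 3055 in their lungs and 92.5, 668, 325 and 178 in their livers. Every heart was above every lung and liver, but lung and liver overlapped, since the liver of horse 30 (668) was just above the lung of horse 27 (665). Hearts differed 4.71-fold among themselves, with horse 34 lowest, whereas the same horse had the highest lung value.

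The share of miR-133a in heart was 13.1, 8.84, 5.87 and 1.85% in the same order of horses, against 0.0134 to 0.0763% in lung and 0.00163 to 0.0135% in liver. Its rank was 2 in the hearts of horses 27 and 30, 3 in horse 32 and 9 in horse 34. Depth was no limit in heart, where the Wilson intervals were at most 0.947% of the share, while the 50 reads in the liver of horse 27 gave an interval of up to 56.0% of it.

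miR-133b, which differs from miR-133a only near the 3′ end in mammals and may share reads with it, had 116809, 65653, 38839 and 13028 normalized counts in the hearts of horses 27, 30, 32 and 34. It had 52.3, 76.7, 58.9 and 216 in their lungs, and 0, 45.1, 14.0 and 9.25 in their livers. The values of the tissues did not overlap, with the lowest lung 1.16-fold above the highest liver. That lung (horse 27) had 65 reads and that liver (horse 30) 56. Their 95% Poisson intervals, 50.2 to 82.8 and 42.3 to 72.7 reads, overlap. As for miR-133a, horse 34 had the lowest heart and the highest lung. Its share in heart lay between 0.0850 and 1.15%, with ranks of 15, 20, 24 and 40. In all livers together it rested on 89 reads.

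miR-206, the skeletal muscle member, was scarce. It had 38.5, 44.6, 63.7 and 80.8 normalized counts in the hearts of horses 27, 30, 32 and 34, which were 31, 30, 57 and 48 reads. In lung it was listed at 6.18 (10 reads) for horse 30 and at 0 in the other 3 libraries, and in liver at 0 in all 4. Hearts were thus above every lung and liver. With the values of 0 set to the 6 reads under which the table lists none, miR-206 was at least 10.3-fold higher in heart than in lung and at least 9.37-fold higher in heart than in liver. It entered the tested set through its heart libraries alone and therefore had to differ there, so no call of it is counted below. In heart 1 miR-206 stood against 120911, 124945, 70083 and 96882 miR-1 in horses 27, 30, 32 and 34, although miR-206 and miR-1 have the same seed and similar sequences, and reads of one could be listed under the other.

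**Figure D1:**
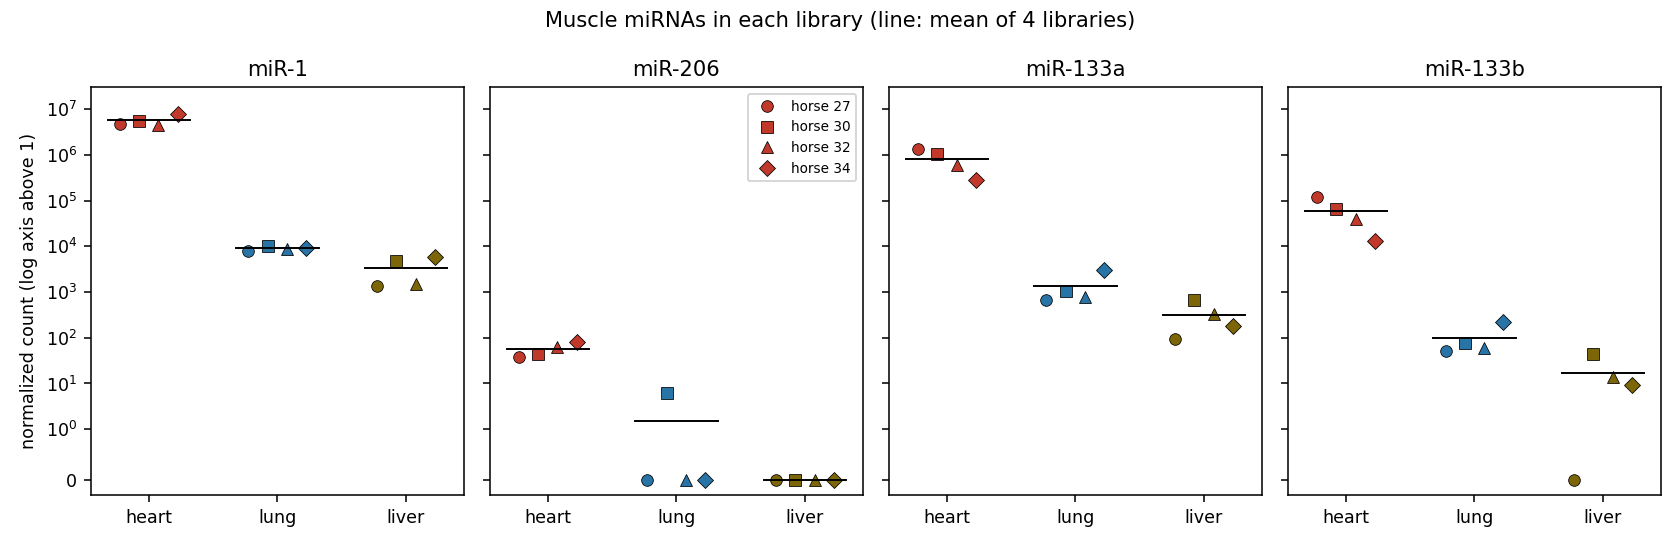
Normalized counts of the 4 miRNAs (y axis, logarithmic above 1 and linear down to 0) in heart, lung and liver (x axis), with a marker for each horse and a line at the mean of 4 libraries. miR-1, miR-133a and miR-133b lie highest in every heart, and miR-206 reaches 80.8 at most.

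The 4 members together took 60.1, 55.6, 48.9 and 53.0% of the reads in the hearts of horses 27, 30, 32 and 34, against 0.173 to 0.306% in their lungs and 0.0249 to 0.110% in their livers. The hearts of horses 27 and 34 reached their totals by different routes: the share of miR-1 was lower in horse 27 (45.8%) than in horse 34 (51.1%), and that of miR-133a higher (13.1 against 1.85%).

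**Figure D2:**
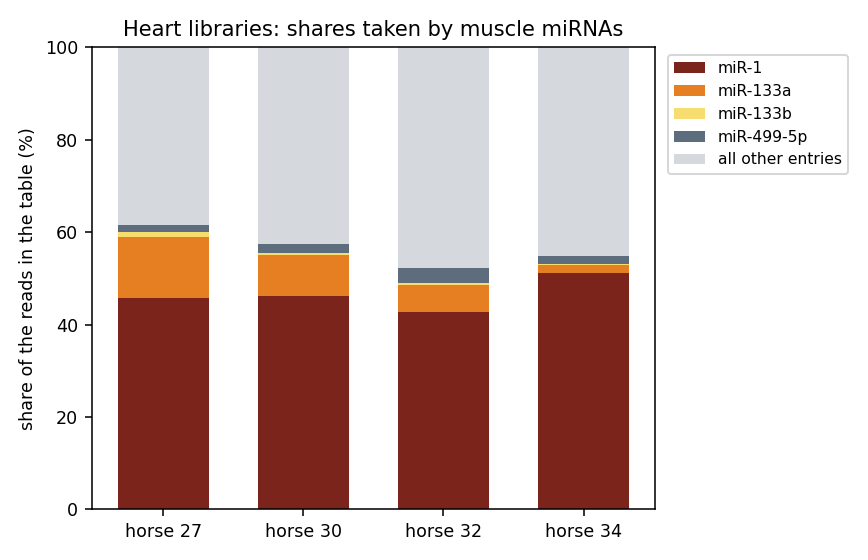
Share of the reads in the table (y axis, percent, from 0) taken in each heart library (x axis, by horse) by miR-1, miR-133a, miR-133b, miR-499-5p and all other entries, stacked. miR-1 fills 42.7 to 51.1% of each bar, and the band of miR-133a narrows to 1.85% in horse 34.

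The tissues were compared over the 256 known miRNAs that reached 10 normalized counts in 4 or more libraries, by limma on log2(normalized count + 1), a scale on which values of 0 can overstate a fold change. A miRNA was called where the Benjamini-Hochberg adjusted p fell below 0.05 and the means differed by 1 or more on the log2 scale. The 3 members other than miR-206 (miR-1 with miR-133a and miR-133b) passed as higher in heart than in lung, where 19.1% of all tested miRNAs were called higher (49 of 256) and 21.9% had hearts wholly above lungs. miR-1 differed by a log2 fold change of 9.26 (SE 0.45, limma adjusted p = 1.26e-08), the means of 4 libraries being 628-fold apart. miR-133a differed by 9.29 (SE 0.69, adjusted p = 5.2e-07), a ratio of means of 598, or 1004 without the lung of horse 34. miR-133b differed by 9.02 (SE 1.05, adjusted p = 2.38e-05), a ratio of means of 580, or 935 without that lung. The 95% intervals of the 3 fold changes overlapped (8.28 to 10.24, 7.78 to 10.80 and 6.72 to 11.31 on the log2 scale).

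In heart over liver, too, the same 3 members were called higher, beside 19.9% of the tested miRNAs (51 of 256, and as many with hearts wholly above livers). The log2 fold change was 10.98 for miR-1 (SE 0.45, limma adjusted p = 3.22e-09), with means 1675-fold apart. It was 11.49 for miR-133a (SE 0.69, adjusted p = 7.46e-08), with means 2609-fold apart, or 4152-fold without the liver of horse 30. For miR-133b it was 12.24 (SE 1.05, adjusted p = 1.09e-06), and with the liver of horse 27 at its floor the mean was at least 2953-fold higher in heart, or at least 5124-fold without the liver of horse 30. In both comparisons all 4 horses had more of each of these miRNAs in their heart.

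Lung was above liver by much less. The calls were again miR-1, miR-133a and miR-133b, all higher, in a comparison in which 25.0% of the tested miRNAs were called higher (64 of 256) and 25.8% had lungs wholly above livers. The log2 fold change was 1.71 for miR-1 (SE 0.45, limma adjusted p = 0.00620), with means 2.67-fold apart. It was 2.20 for miR-133a (SE 0.69, adjusted p = 0.0173), where the groups overlapped and the means were 4.37-fold apart, 2.60-fold without the lung of horse 34 and 6.95-fold without the liver of horse 30. For miR-133b it was 3.22 (SE 1.05, adjusted p = 0.0207), and the mean was at least 5.09-fold higher in lung, at least 3.16-fold without the lung of horse 34 and at least 8.84-fold without the liver of horse 30. These calls rest on few libraries: with the lung of horse 34 left out, the adjusted p was 0.0519 for miR-133a and 0.0585 for miR-133b, and with the liver of horse 27 left out it was 0.0540 for miR-133a. Without horse 32 in any tissue, the adjusted p for miR-1 was 0.0563. miR-206 was not called between lung and liver (log2 fold change 0.71, adjusted p = 0.376), where 10 reads of a single library were all there was. Markers of other cells differed in this comparison as well. The smooth muscle list (2 of 2 measured) had sums of 148960 to 274812 normalized counts in lung and 59108 to 156948 in liver, which overlap. The leukocyte list (2 of 4 measured) had sums of 26795 to 84430 in lung and 11167 to 16343 in liver, and the red blood cell list (2 of 3 measured) 25239 to 66840 in lung and 4150 to 6888 in liver, neither with overlap. Of the measured members, miR-144 of the red blood cell list was at 0 in 3 lungs and 2 livers. The sums of that list were thus mostly miR-486-5p (23889 to 66840 in lung, 4150 to 6888 in liver), which is also expressed in muscle. The part of these cells in the result was not tested.

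The share of heart libraries that the members occupy bears on the scale of every other miRNA. When each library was rescaled to the same total (CPM), the median log2 fold change of the 256 tested miRNAs was -1.03 in heart over lung, against 0 with the authors' size factors, and -1.22 in heart over liver, against -0.23. The calls in heart over lung were then 16 higher and 121 lower, where the authors' size factors gave 49 higher and 50 lower. In heart over liver they were 27 higher and 137 lower, where the authors' size factors gave 51 and 69. Relative to the median, miR-1 was 8.96 higher in heart over lung on the log2 scale by total and 9.26 by size factors, and in heart over liver 11.00 by total and 11.21 by size factors. CPM totals are smaller than the totals of the normalized counts, so the 1 added before the log2 weighs more by CPM. The medians, calls and relative values by CPM hold this effect besides that of the equal total. Rescaled to the total of all entries but the 4 members, the median of heart over lung was -0.14 and that of heart over liver -0.28. On that scale, which was chosen after the data were seen, the log2 fold change of miR-1 was 9.07 in heart over lung and 10.92 in heart over liver.

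**Figure D3:**
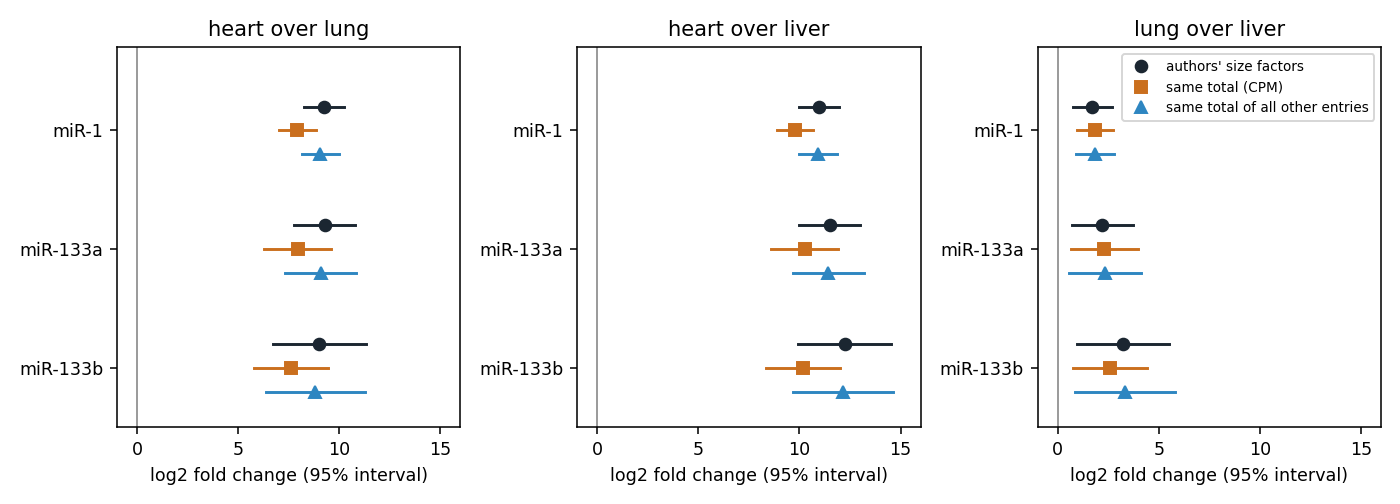
log2 fold changes (x axis) of miR-1, miR-133a and miR-133b (rows) with their 95% intervals from limma in 3 comparisons, under the authors' size factors, an equal total per library, and an equal total of the entries other than the 4 members. Under all 3 scales the intervals lie above 0, and for miR-1 in heart over lung the values are 9.26, 7.93 and 9.07.

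Since a ratio of a pair of miRNAs in the same library does not depend on the scaling, miR-1 was set against miR-133a within each library. The ratio was 3.50, 5.22, 7.28 and 27.6 in the hearts of horses 27, 30, 32 and 34, 11.9, 9.79, 11.6 and 2.93 in their lungs, and 14.3, 7.07, 4.57 and 33.2 in their livers. The tissues overlapped widely, and within each of them the ratio spanned 7.90-fold (heart), 4.04-fold (lung) and 7.26-fold (liver). Horse 34 had the highest ratio in heart and in liver and the lowest in lung. Without it the ratio spanned 2.08-fold in heart, 1.21-fold in lung and 3.12-fold in liver, and without horse 32 it spanned 4.69-fold in liver.

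The mean ratios of the tissues were not told apart. On the log2 scale the heart minus lung difference was -0.03 (95% interval -1.76 to 3.23, exact two-sided permutation test, p = 1), the heart minus liver difference -0.52 (-3.25 to 2.59, p = 0.571 by the same exact test) and the lung minus liver difference -0.49 (-3.50 to 1.37, p = 0.571 by the same exact test). Adjusted over the 4 ratio tests made, the exact permutation p was 1, 0.762 and 0.762. With 4 libraries against 4 the smallest p this test can give is 0.0286, and the intervals leave room for differences of several fold. The geometric mean ratio was 7.78 in heart, 7.93 in lung and 11.1 in liver, while the mean level of miR-1 itself was 628-fold higher in heart than in lung. Without horse 27 the heart minus lung difference was 0.55 on the log2 scale, and without horse 34 it was -1.12.

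miR-133a and miR-133b, which come from separate clusters but are of 1 family, kept a narrower ratio. It was 11.4, 16.2, 15.8 and 21.7 in the hearts of horses 27, 30, 32 and 34 and 12.7, 13.5, 12.9 and 14.1 in their lungs. In liver it was at least 8.33 for horse 27, whose miR-133b was listed at 0, and 14.8, 23.3 and 19.3 for horses 30, 32 and 34. The latter livers had 56, 19 and 14 reads of miR-133b. Both miRNAs differ only near the 3′ end in mammals and may share reads, and the part of this in their ratio was not tested. Lungs differed from each other by 1.11-fold only, and this includes the lung of horse 34, which alone gave both levels their wide span there (4.59-fold for miR-133a and 4.13-fold for miR-133b, against 1.56-fold and 1.46-fold without it). These lungs had 65, 124, 84 and 191 reads of miR-133b, with Wilson intervals of up to 49.0% of its share. Such counts do not resolve a span as narrow as 1.11-fold. The heart minus lung difference was 0.26 on the log2 scale (95% interval -0.30 to 0.77, exact two-sided permutation test, p = 0.229, adjusted p = 0.762), and heart was higher in 3 of 4 horses.

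**Figure D4:**
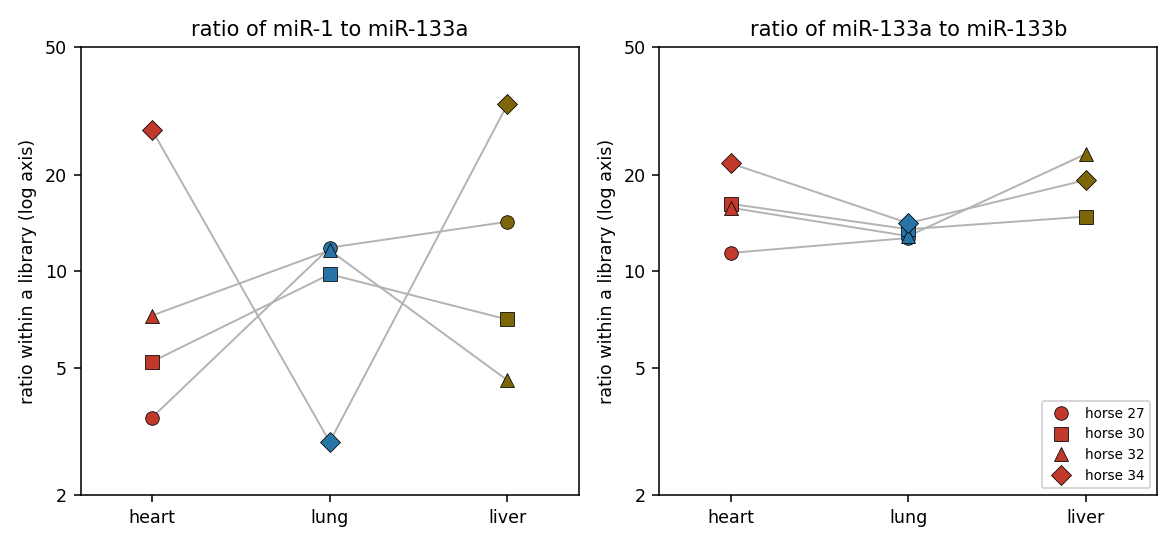
Ratio of miR-1 to miR-133a and ratio of miR-133a to miR-133b within each library (y axes, logarithmic, the same range) in heart, lung and liver, with a grey line joining the tissues of a horse. The first ratio runs from 2.93 to 33.2, and horse 34 is at its top in heart and liver and at its bottom in lung, whereas the lungs lie between 12.7 and 14.1 in the second; the liver of horse 27 has no point there, as its miR-133b was listed at 0.

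The spread among hearts differed by member. Among the 158 tested miRNAs with a mean of at least 100 normalized counts in heart, the median ratio of the highest to the lowest heart was 2.10. miR-1 spanned 1.75-fold, and 109 of the 158 spanned more. miR-133a spanned 4.71-fold, which 17 exceeded, and miR-133b 8.97-fold, which 2 exceeded. Without the heart of horse 34 these spans were 2.17-fold and 3.01-fold, against a median of 1.64 over the other 3 hearts, with 38 and 19 of the 158 wider. Without the heart of horse 27 the span of miR-133b was 5.04-fold. In lung, miR-1 spanned 1.29-fold, and 151 of the 161 miRNAs kept by the same rule spanned more. The spans of miR-133a and miR-133b in lung lay above the median of 2.08 only through horse 34, since without it they were 1.56-fold and 1.46-fold, below the median of 1.62 over the other 3 lungs. In liver, miR-1 spanned 4.48-fold and miR-133a 7.22-fold, against a median of 1.69. Of the 172 miRNAs kept by that rule in liver, 11 and 4 were wider. Without the liver of horse 27 or that of horse 30, miR-133a spanned 3.75-fold and 3.51-fold.

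**Figure D5:**
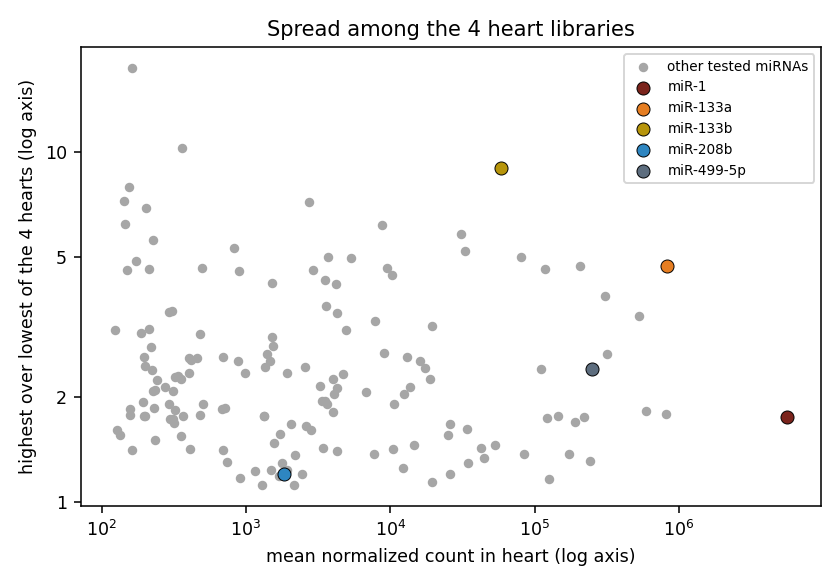
Ratio of the highest to the lowest heart library (y axis, logarithmic) against the mean normalized count in heart (x axis, logarithmic) for the 158 tested miRNAs with a mean of at least 100. miR-1 lies at 1.75 and miR-208b at 1.21, under the median of 2.10, and miR-133a and miR-133b lie at 4.71 and 8.97.

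The known miRNAs with profiles closest to the members were sought by the root mean square difference of centred log2 values over the 12 libraries from the mean profile of the 4 members, which is low for a close match (median of tested miRNAs 4.64). The 5 closest were miR-499-5p (1.17), miR-208b (1.30), miR-95 (1.37), miR-592 (1.88) and miR-384 (2.25). Of these, miR-208b, miR-592 and miR-384 entered the tested set through their heart libraries alone, so a profile highest in heart was fixed for them. The members themselves lay at 0.756 (miR-1), 0.777 (miR-133a), 1.22 (miR-133b) and 2.03 (miR-206) from the mean profile that they make up. Within the members, miR-133a and miR-133b were closest (0.776), then miR-1 and miR-133a (1.05). miR-206 was farther from miR-133b (3.16), its cluster partner, than from miR-1 (2.41), though its values of 0 weigh on both figures.

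miR-499-5p, encoded in an intron of the myosin gene MYH7B in mammals, had 141724, 215256, 340490 and 291587 normalized counts in the hearts of horses 27, 30, 32 and 34, against 89.4 to 382 in lung and 98.0 to 339 in liver. It was 1019-fold higher in heart than in lung and 1100-fold higher than in liver by the means (limma adjusted p = 1.86e-08 and 1.54e-08). Lung and liver did not differ beyond their spread (log2 fold change 0.03, SE 0.51, 95% interval -1.10 to 1.16, adjusted p = 0.976). miR-1 was called higher in lung in the same fit, and the difference between these miRNAs was not tested. Set against miR-1 in the same library, it was 3.04, 3.86, 7.63 and 3.73% in the hearts of horses 27, 30, 32 and 34, 1.13, 1.61, 4.32 and 3.75% in their lungs and 7.42, 5.77, 12.7 and 5.73% in their livers. All livers lay above all lungs and above the hearts other than that of horse 32. Against miR-133a it ran from 10.6 to 103% in the hearts, from 11.0 to 50.3% in the lungs and from 40.8 to 190% in the livers, and the heart of horse 34 was the only heart with more miR-499-5p than miR-133a.

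miR-208b, which lies in an intron of MYH7, a myosin of heart muscle, had 1749, 1769, 2100 and 1741 normalized counts in the hearts of horses 27, 30, 32 and 34, a span of 1.21-fold, and was listed at 0 in all lungs and livers. It amounted to 0.0375, 0.0317, 0.0470 and 0.0223% of miR-1 in these hearts. The values of 0 allow up to 0.0365 to 0.0757% of miR-1 in lung and up to 0.0669 to 0.840% in liver, so values of 0 do not place the lungs and livers below the whole range of the hearts; the lowest of these limits, that of the lung of horse 30, is under the ratio in the hearts of horses 27 and 32. miR-208a, from the intron of MYH6, was listed above 0 in 1 heart only. miR-95 stood at 2549 to 15774 normalized counts in the hearts, 50.9 to 142 in the lungs and 11.1 to 44.3 in the livers. It thus kept the order of tissues that the means of miR-1, miR-133a and miR-133b follow. miR-592 (32.0 to 87.2 in heart) and miR-384 (13.4 to 52.2) were at 0 outside the heart.

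miR-486-5p, which is expressed in muscle and also in red blood cells, followed another pattern. It had 66906 to 160133 normalized counts in the hearts, 23889 to 66840 in the lungs and 4150 to 6888 in the livers. Its log2 fold change was 1.44 in heart over lung (SE 0.38, limma adjusted p = 0.00839) and 4.25 in heart over liver (SE 0.38, limma adjusted p = 1.36e-06). By the authors' size factors its mean was 2.57-fold higher in heart than in lung, where that of miR-1 was 628-fold higher. The lowest heart (66906) was just above the highest lung (66840). As a share of the reads in the table, its mean was 0.919% in heart and 0.906% in lung. That share was higher in lung for horses 27 and 30, and higher in heart for horses 32 and 34. The heart total includes the reads of the 4 members, which lowers the share of every other entry there.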

How the data were processed

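Small RNA libraries of heart, lung and liver of 4 horses were used (12 libraries). Per the study's methods, the authors trimmed the reads with Trim Galore 0.6.7 and counted them with sRNAbench against miRBase 22.1 (minimum read count 6); the submitters' processing notes name Trimmomatic and BWA. The deposited values are a signal: counts the authors divided by DESeq2 size factors. Deposited columns of the authors' own comparison (log2 fold change and its error, a test score, p-value and adjusted p-value) were not used. limma 3.58.1 in R 4.3.3 (trend, pseudocount 1, 1 mean per tissue, all 12 libraries) tested 256 known miRNAs, after a check on simulated data. Ratios were compared by exact permutation. Python 3.11.15 with scipy 1.17.1 and pandas 2.3.3 did the rest. Equal horse numbers are the same animal, so they pair the samples; deviations from tissue means correlated by -0.27 to 0.15 within horses (median -0.057) and -0.27 to 0.36 between horses (median 0.028). Named miRNAs were the 4 members, the 5 closest profiles, miR-208a, miR-208b, miR-499-5p, miR-486-5p and entries with a member's seed. Members and lists were chosen with earlier results of these data known. Alternatives covered scaling, pseudocount, filters, the horse as a block and left-out libraries. mRNA and methylation data were not used here.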

Additional observations from a re-analysis of the deposited data

Results flagged for a closer look

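Among 16 groups of 4 libraries (members and their ratios by tissue), 4 had a value far from the other 3. The groups share data, as the ratios are built from the members, so this number is not set against a chance rate. The lung of horse 34 had 3055 normalized counts of miR-133a, against 665 to 1037 in the other lungs, and 216 of miR-133b, against 52.3 to 76.7. Its miR-1 (8965) lay among the other lungs (7886 to 10161). This was the shallowest lung library (3536536 reads), and the part of depth was not tested. The lung of horse 30 had 6.18 normalized counts of miR-206 (10 reads), and the other lungs were listed at 0, so that any value above 0 would have been flagged. The ratio of miR-1 to miR-133a in the heart of horse 34 was 27.6, against 3.50 to 7.28 in the other hearts.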

How the results depend on the processing

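Of 225 refits of the fold changes of miR-1, miR-133a and miR-133b, 217 kept their direction and their call, and 23 of 28 ratio differences kept their sign. Many of these refits could not move the value. Leaving out a library of the third tissue, the horse as a block and other filters repeat the fold change and alter only its error and adjusted p. The ratio differences with horses paired likewise repeat the main value. Of 78 counts of miRNAs called higher, 76 stayed within 1.5 times the reported count. Heart over lung and heart over liver kept every call of these 3. With libraries left out, miR-1 ranged from 9.09 to 9.36 and from 10.63 to 11.35 on the log2 scale in these comparisons. By CPM, 16 miRNAs were called higher in heart over lung and 27 in heart over liver. In lung over liver, left-out libraries gave 1.37 to 2.09 for miR-1, 1.56 to 2.72 for miR-133a and 2.16 to 4.05 for miR-133b. Calls were lost without horse 32 (miR-1 1.43, adjusted p = 0.0563; miR-133a 2.52, adjusted p = 0.0524; miR-133b 3.63, adjusted p = 0.0652) and without horse 34 (miR-133a 1.56, adjusted p = 0.0749; miR-133b 2.83, adjusted p = 0.0796), where fewer samples were fitted. They were also lost without the lung of horse 34 (1.72 for miR-133a and 2.78 for miR-133b) and without the liver of horse 27 (1.73 for miR-133a). The log2 ratio of miR-1 to miR-133a changed sign in heart over lung with the ratio of tissue means (0.073) and without horses 27, 30 and 32 (0.55, 0.27 and 0.19; range -1.12 to 0.55), and in lung over liver without horse 34 (0.52; range -1.10 to 0.52); the cause was not tested. The replicate block (horse) changed no call of a member and gave 49, 48 and 63 miRNAs called higher in heart over lung, heart over liver and lung over liver, against 49, 51 and 64 without it. For miR-1 the blocked adjusted p was 2.93e-07, 5.51e-08 and 0.00397 in heart over lung, heart over liver and lung over liver. Tests on reads were not run. Depth limits miR-206 and miR-133b outside the heart.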
